A study of Mus musculus with 12 samples.

Results

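A set of 43 mouse genes of DNA replication and mitosis was followed across 12 arrays of liver cells and liver organoids. The members were listed by name, and each was read from the array row that names it alone, the row with the highest mean where there were several. Of the 43 listed genes, 42 were measured, among 19937 genes in all, and Ccnb1 was dropped because no row was annotated to it alone. They fall into 21 genes of replication, 18 of mitosis and 3 cyclins of G1 and the G1/S transition.

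All libraries came from C57Bl6 mice, in 4 groups of 3. One group held YFP-positive cells sorted from the liver of uninduced animals, which the labels call hepatocytes, and another held organoids grown under wild-type conditions. In the remaining groups Yap, the transcriptional coactivator that the Hippo pathway restrains, had been on in the liver for 3 weeks before 2 weeks of organoid culture. Per the labels, Yap was off during culture without doxycycline (Yap-off organoids) and on during culture with it (Yap-on organoids). The array row of Yap1 did not set these apart, at 7.35, 7.21 and 6.88 with Yap off and 7.45, 7.40 and 7.28 with Yap on, and hepatocyte 1 (7.2) and wild-type organoid 2 (7.51) lay as high; whether that row reads the transgene was not tested. The sources used here do not give the promoter that drives Yap, the age of the animals or whether replicates were separate animals or cultures, and p-values therefore cover no more than the spread among libraries, possibly a technical one.

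The libraries within the hepatocyte and wild-type organoid groups differed in markers of cell types that their labels do not name. As log2 intensity, the median of 10 macrophage markers was 11.29 for the label hepatocyte 2 and 10.39 and 11.02 for wild-type organoid 1 and 3, against 3.76 and 4.03 for hepatocyte 1 and 3 and 3.42 for wild-type organoid 2. The 10 endothelial markers split the same way, from 7.33 to 9.68 against 3.26 to 3.63. Krt19, a keratin of bile duct cells, took the opposite split, at 4.95, 4.28 and 4.92 against 10.21, 9.82 and 9.28. The median of 7 biliary markers split as Krt19 did but by less, at 4.40, 4.05 and 3.77 against 5.47, 5.93 and 6.51. Not all of them did so. Epcam and Prom1 stood between 3.23 and 4.95 in all 6 libraries, and Cldn4 was higher in hepatocyte 2 (4.66) than in hepatocyte 1 and 3 (4.29 and 4.55). The median of 10 hepatocyte markers was high in all 6 libraries, at 10.31, 10.27 and 10.59 for hepatocyte 1 to 3. It was 10.36, 9.02 and 10.37 for wild-type organoid 1 to 3. Single hepatocyte markers stood far lower. Cyp2e1 was at 3.16, 3.22 and 2.74 in hepatocyte 1, hepatocyte 3 and wild-type organoid 2. It was at 10.14, 10.03 and 9.90 in hepatocyte 2 and wild-type organoid 1 and 3. Arg1, Pck1 and Cps1 were at 3.78, 3.54 and 5.07 in wild-type organoid 2. In the Yap-off and Yap-on libraries macrophage, endothelial, lymphocyte, red cell precursor and fibroblast markers had medians between 2.70 and 4.0, below the array medians of all genes, which ran from 4.14 to 4.34. Single markers in these lists stood higher. Cd68, a macrophage marker, was at 6.84, 6.66 and 6.35 with Yap on, and Reln, a stellate cell marker, at 7.89, 7.62 and 8.02 with Yap off. The labels were kept throughout. Results that rest on the hepatocyte and wild-type organoid groups are given both with and without a discordant pair, hepatocyte 2 and wild-type organoid 2. Each of the pair stood apart from its group in macrophage and endothelial markers and in Krt19. Without the pair, the wild-type group holds numbers 1 and 3, both high in macrophage and endothelial markers. The median of 8 lymphocyte markers was 8.01 and 7.17 in these, against 2.84 in wild-type organoid 2 and 2.94 to 3.02 in the libraries labelled hepatocyte. Because RNA was taken from whole samples, fewer cycling cells and less of a transcript per cycling cell cannot be told apart.

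A cell that commits to division first loads the MCM2-7 helicase onto its DNA in G1, with the help of Cdc6 and Cdt1. Cyclin E with its kinase then helps to fire the origins, where Cdc45 and the GINS complex complete the helicase, and polymerases, the sliding clamp PCNA and a supply of nucleotides copy the genome. Cyclins A and B with CDK1 drive the later entry into mitosis, in which Aurora and Polo kinases, kinesins and the anaphase-promoting complex separate the chromosomes. Most of these transcripts are themselves periodic. E2F factors are known for the genes of the G1/S wave and the DREAM and MuvB complexes, with B-MYB and FOXM1, for those of G2 and mitosis. In the adult liver nearly all hepatocytes rest outside the cycle.

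The replication and the mitosis genes differed in the letters of their promoters, a feature that had no part in choosing them. RefSeq promoters (GRCm38.p6, 250 bases before to 50 after a start) were on hand for 33 of the 42 measured genes, as 35 windows, and were searched on both strands. The E2F site was searched as TTTCCCGC, TTTCGCGC, TTTGCCGC or TTTGGCGC, the cell cycle genes homology region (CHR), an element of mitotic promoters, as TTTGAA, and the CCAAT box as CCAAT, with overlapping matches counted separately. An E2F match lay in 8 of 20 replication windows (40.0%), in 1 of 14 mitosis windows (7.14%, that of Cdk1) and in 2.26% of all 32851 promoters. A CHR match lay in 10 of 14 mitosis windows (71.4%), in 3 of 20 replication windows (15.0%) and in 17.9% of all promoters. A CCAAT match lay in 12 of 14 mitosis windows (85.7%), 13 of 20 replication windows (65.0%) and 37.4% of all. A match is a description of these letters and no evidence of binding. For Ccne1, the G1 cyclin with a window, none of the 3 motifs was matched there.

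The windows of 4 genes are shown, with matches in capitals. Mcm6 and Mki67 carry the E2F and the CHR letters, and Rrm2 and Cenpe, with the smallest p of their classes between Yap-on and Yap-off organoids in the fit on their 6 arrays, carry the CCAAT box alone.
Mcm6, chr1:128359656-128359955, - strand: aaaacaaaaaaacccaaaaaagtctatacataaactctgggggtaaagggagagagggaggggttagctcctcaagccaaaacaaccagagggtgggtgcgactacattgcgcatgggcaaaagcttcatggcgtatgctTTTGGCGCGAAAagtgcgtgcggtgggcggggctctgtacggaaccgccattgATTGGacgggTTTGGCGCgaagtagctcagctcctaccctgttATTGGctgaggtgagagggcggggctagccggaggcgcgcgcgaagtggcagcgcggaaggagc
Mki67, chr7:135716330-135716629, - strand: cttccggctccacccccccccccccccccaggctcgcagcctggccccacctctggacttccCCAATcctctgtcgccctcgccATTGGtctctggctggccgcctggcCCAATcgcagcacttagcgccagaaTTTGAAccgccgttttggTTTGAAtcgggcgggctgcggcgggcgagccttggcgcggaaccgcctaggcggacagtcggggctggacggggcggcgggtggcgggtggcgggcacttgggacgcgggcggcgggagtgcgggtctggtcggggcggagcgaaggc
Rrm2, chr12:24708004-24708303, + strand: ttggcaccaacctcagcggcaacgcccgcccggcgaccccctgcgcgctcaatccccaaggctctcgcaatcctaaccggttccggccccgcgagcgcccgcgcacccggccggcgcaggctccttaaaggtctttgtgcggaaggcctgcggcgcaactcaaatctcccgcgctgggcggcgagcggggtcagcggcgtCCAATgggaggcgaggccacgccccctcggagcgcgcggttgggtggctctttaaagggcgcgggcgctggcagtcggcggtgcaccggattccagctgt
Cenpe, chr3:135212313-135212612, + strand: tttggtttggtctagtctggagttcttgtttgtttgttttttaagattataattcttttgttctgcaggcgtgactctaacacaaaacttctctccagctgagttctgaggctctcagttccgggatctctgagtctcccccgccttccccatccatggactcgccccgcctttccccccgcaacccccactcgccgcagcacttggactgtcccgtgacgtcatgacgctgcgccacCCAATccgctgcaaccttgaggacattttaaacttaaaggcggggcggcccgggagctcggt
In Mcm6, a subunit of the replicative helicase, E2F matches began 110, 106 and 47 bases before the start, and those at 110 and 106 overlap on opposite strands. In Mki67, which encodes the proliferation marker Ki-67, CHR matches began 116 and 98 bases before the start, downstream of CCAAT matches at 188, 166 and 141. The CCAAT match of Rrm2, a subunit of ribonucleotide reductase, began 50 bases and that of Cenpe, a kinetochore motor, 12 bases before the start.

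Across the 12 arrays the members moved largely together, and the mitosis genes more tightly than the replication genes. Each gene was set against its own mean over all arrays, and the median of these deviations was taken per library. It was highest in the library labelled wild-type organoid 2, at 0.86 for replication and 1.10 for mitosis, where all 21 replication and all 18 mitosis genes lay above their means, and in Yap-on 3, at 0.70 and 1.08, where all of them did too. Yap-on 1 and 2 stood at 0.16 and 0.20 for replication and 0.39 and 0.20 for mitosis. Yap-off 1, 2 and 3 stood at 0.10, -0.42 and -0.33 for replication and at 0.16, -0.48 and -0.33 for mitosis. Thus Yap-on libraries lay above Yap-off libraries in both classes, with Yap-off 1 close to Yap-on 1 and 2.

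**Figure D1:**
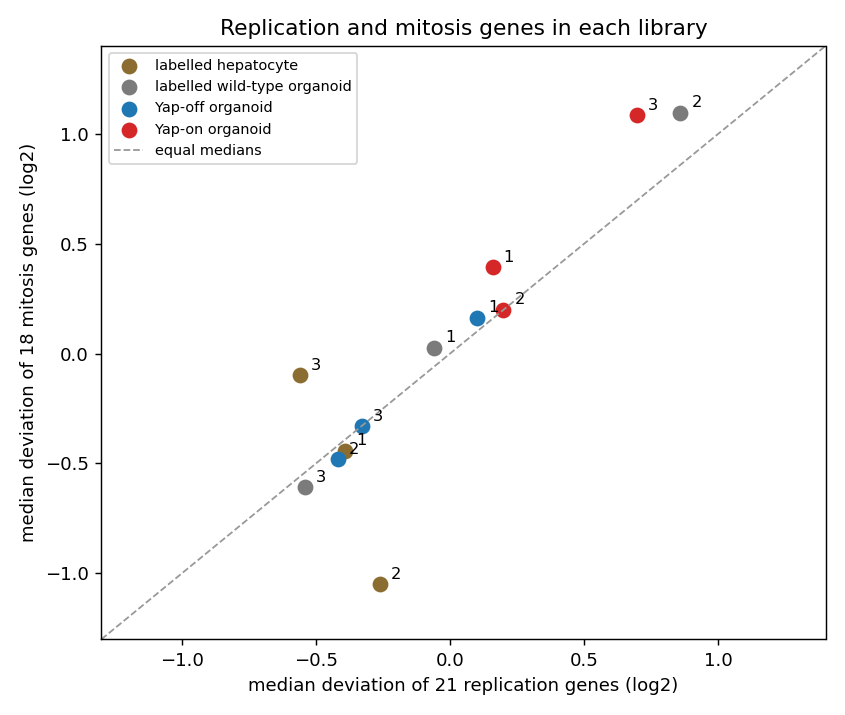
Median deviation of 21 replication genes (x axis) and of 18 mitosis genes (y axis) from each gene's mean over 12 arrays, in log2 units, 1 point per library, coloured by group label and numbered by replicate. Most points lie along the line of equal medians, whereas the library labelled hepatocyte 2 lies at -0.26 for replication and -1.05 for mitosis, and that labelled hepatocyte 3 at -0.56 and -0.10.

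In most libraries the classes moved by similar amounts, and they parted most in hepatocyte 2. The mitosis median minus the replication median lay between -0.07 and 0.39 in the 9 organoid libraries. It was -0.79 in the library labelled hepatocyte 2, 0.46 in that labelled hepatocyte 3 and -0.05 in that labelled hepatocyte 1. The library labelled hepatocyte 2 was the lowest of all 12 for 15 of 18 mitosis genes, but only for 4 of 21 replication genes, and it was the highest for Pola1, the catalytic subunit of the polymerase that starts DNA strands. Ccnb2, a mitotic cyclin, stood there at 4.19, against 6.01 to 8.20 in the other 11 libraries, and Top2a, the topoisomerase that untangles sister chromosomes, at 3.79, against 4.68 to 6.92. Pcna, in contrast, stood there at 9.78, within its range of 8.66 to 10.85 elsewhere. That library also has the macrophage and endothelial transcripts given above, and their part in this pattern was not tested.

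Pairs of mitosis genes had a median Pearson correlation of 0.829 over the 12 arrays (153 pairs), pairs of replication genes one of 0.555 (210 pairs) and pairs across the classes one of 0.590 (378 pairs). When each group's mean was first removed, the medians were 0.818, 0.551 and 0.528. The arrays share 1 normalization and the groups are small, so these values describe the set and carry no test. Ccna2, the cyclin of S phase and G2, was closest to the mean of the other mitosis genes (r = 0.962 over 12 arrays), and Rrm1, the large subunit of ribonucleotide reductase, to that of the other replication genes (0.961). Pola1 (0.258), Rrm2 (0.465), Rfc4 (0.472), a clamp loader subunit, and Mcm3 (0.476), a helicase subunit, were the least like their class. Rrm2 and Rfc4 lay closer to the mitosis mean (0.757 and 0.679), as did Cdc6 and Prim1 by less. The mitosis genes Aurka (0.894 against 0.832), Aurkb (0.890 against 0.846), Kif20a (0.923 against 0.876) and Cdc20 (0.860 against 0.844) lay closer to the replication mean.

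**Figure D2:**
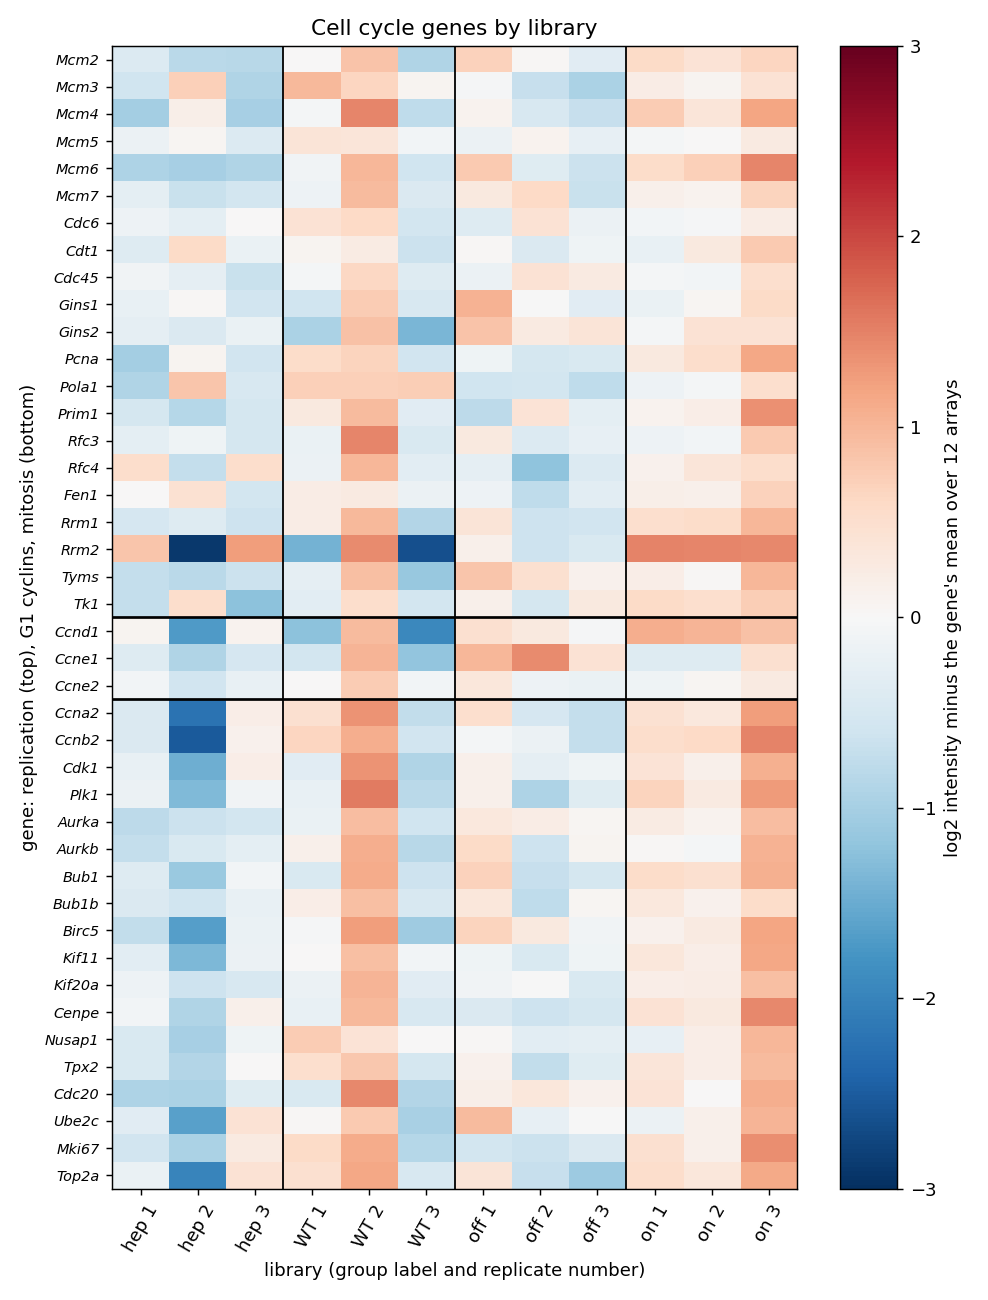
Log2 intensity of each of the 42 measured genes minus its mean over 12 arrays (colour, red above and blue below), with genes in rows by class and libraries in columns by group label (hep, labelled hepatocyte; WT, labelled wild-type organoid; off and on, Yap-off and Yap-on organoids). The columns of wild-type organoid 2 and Yap-on 3 are red almost throughout, and in that of hepatocyte 2 the blue is deepest for Rrm2 and the mitotic cyclins.

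Yap-on and Yap-off organoids share their time with Yap on in the liver and differ in whether it stayed on in culture. They also differ in sex-linked genes and in differentiation markers, given below. Sex, cell state and Yap in culture therefore cannot be told apart in this comparison. The mean was higher with Yap on for 37 of 42 members, namely for all 18 mitosis genes, 17 of 21 replication genes and 2 of 3 G1 cyclins. The median log2 difference was 0.72 for mitosis and 0.64 for replication genes, against -0.08 for all genes. Without overlap between the groups, 17 members were higher and 0 lower, where 24.6% of all genes were higher and 28.9% lower. In the fit on all 12 arrays limma called 0 members (adjusted p under 0.05), while 11.5% of all genes were called. At an unadjusted p under 0.05, 4 members passed, namely Cenpe, Fen1, Pcna and Mki67, as did 5424 of all 19937 genes.

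Fitted on the 6 arrays compared, which leaves the mixed groups out of the spread, limma called 14 members, 13 higher and 1 lower. There 31.2% of all genes were called, 19.1% higher and 12% lower. The share of members called in either direction is thus near the background. The members' calls lay more to the higher side than those of all genes, and this lean was not tested. The members called higher were 8 replication genes, 4 mitosis genes and Ccnd1. Leaving out 1 of the 6 libraries gave 19 calls without Yap-off 1 (all genes, 39.4%), 7 without Yap-off 2 (27.3%), 6 without Yap-off 3 (25.9%), 6 without Yap-on 1 (18.9%), 9 without Yap-on 2 (20.4%) and 8 without Yap-on 3 (22.5%). The highest count came where the most genes of all were called, and only Rrm2, Cenpe and Ccnd1 were called in each of these 6 fits. Without the discordant pair, the fit on the other 10 arrays also called 13 higher and 1 lower (all genes, 29.7%, or 18.9% and 10.8%).

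Rrm2, whose protein sets the pace of deoxynucleotide synthesis, had the largest difference. It stood at 7.08, 6.30 and 6.46 with Yap off and at 8.41, 8.39 and 8.38 with Yap on. The Yap-on libraries lay close together and all above the Yap-off libraries. The difference was 1.78 (SE 0.20, adjusted p = 0.000835 on 6 arrays). On 12 arrays the SE was 1.16 and the adjusted p 0.35, and Rrm2 ranged from 4.03 to 8.19 under the hepatocyte label and from 4.29 to 8.36 under that of wild-type organoids.

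Of the other replication genes, Pcna stood at 9.56, 9.17 and 9.23 with Yap off and at 9.97, 10.22 and 10.85 with Yap on. It differed by 1.03 (SE 0.24, adjusted p = 0.017 on 6 arrays, 0.12 on 12). Another row for Pcna gave 0.66, with no overlap either. Mcm4, a helicase subunit, stood at 5.36, 4.77 and 4.56 with Yap off and at 6.02, 5.61 and 6.44 with Yap on, a difference of 1.13 (SE 0.27, adjusted p = 0.020 on 6 arrays). The groups do not overlap for either gene, and Yap-off 1 is the highest of its group in both.

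Of the 6 polymerase and clamp genes Pcna, Pola1, Rfc4 and Fen1 were called higher on 6 arrays, while Prim1, the primase (0.78, adjusted p = 0.19), and Rfc3, a clamp loader subunit (0.31, adjusted p = 0.42), were not. Pola1 stood at 3.64, 3.70 and 3.49 with Yap off and at 4.09, 4.17 and 4.73 with Yap on. Rfc4 stood at 3.89, 2.96 and 3.76 and at 4.29, 4.52 and 4.70. Fen1, the nuclease that trims Okazaki fragments, stood at 4.08, 3.48 and 3.91 and at 4.40, 4.37 and 4.92. None of them overlapped between the groups, but all 3 lay below the array medians of all genes in every Yap-off library, near the floor of the arrays. The differences were 0.72, 0.97 and 0.74, with adjusted p of 0.024, 0.028 and 0.037 on 6 arrays. Mcm3 (0.80, adjusted p = 0.042) and Rrm1 (0.95, adjusted p = 0.049) completed the 8 replication genes, and each held in 1 of the 6 fits that left out a library, as did Fen1.

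The other 13 replication genes did not pass. Tk1, the thymidine kinase of S phase, was higher without overlap, with a difference of 0.64 and a 95% interval from 0.12 to 1.15 on 6 arrays (adjusted p = 0.064). Another row for Tk1 gave 0.42 and did overlap, at 5.72, 4.95 and 5.79 with Yap off and 5.71, 5.66 and 6.34 with Yap on. Mcm6 differed by 0.99, with an interval from 0.04 to 1.94 (adjusted p = 0.10). Mcm2, a helicase subunit, stood at 6.26, 5.59 and 5.23 with Yap off and at 6.14, 5.97 and 6.22 with Yap on, and the highest value was in a Yap-off library. On 6 arrays its difference was 0.42, with a 95% interval from -0.18 to 1.01. Gins2 and Gins1, subunits of the GINS complex, Tyms, the thymidylate synthase, and Cdc45 had the lower mean with Yap on, with differences of -0.25, -0.09, -0.07 and -0.05. Their intervals on 6 arrays reached from -0.73 to 0.24 for Gins2 and from -0.76 to 0.61 for Tyms. By role, 2 of 11 licensing and helicase genes and 4 of 6 polymerase and clamp genes were called on 6 arrays. So were 2 of 4 genes of nucleotide supply. All were called higher, as were 19.1% of all genes, and the difference between roles was not tested.

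Among mitosis genes Mki67 stood at 4.75, 4.65 and 4.86 with Yap off and at 5.78, 5.45 and 6.70 with Yap on, without overlap. The difference was 1.23 (SE 0.30, adjusted p = 0.022 on 6 arrays, 0.16 on 12). Cenpe stood at 3.34, 3.16 and 3.25 against 4.21, 4.08 and 5.21, and its difference of 1.25 (SE 0.29, adjusted p = 0.017 on 6 arrays, 0.092 on 12) started from Yap-off values below the array medians. Yap-on 3 was the highest of the Yap-on libraries for both genes.

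Ccnb2 stood at 6.66, 6.55 and 6.01 with Yap off and at 7.25, 7.32 and 8.20 with Yap on, a difference of 1.19 (SE 0.29, adjusted p = 0.022 on 6 arrays). Plk1, the Polo kinase of mitotic entry, stood at 5.15, 4.06 and 4.63 and at 5.66, 5.27 and 6.26, a difference of 1.12 (SE 0.34, adjusted p = 0.044 on 6 arrays). Neither gene overlapped between the groups. Top2a, at 6.15, 5.07 and 4.68 against 6.28, 6.11 and 6.91, overlapped and did not pass (1.14, SE 0.39, adjusted p = 0.066 on 6 arrays), and another row for it, between 2.13 and 3.71 on all 12 arrays, gave 0.38. Cdk1, at 6.80, 6.39 and 6.51 against 7.06, 6.79 and 7.71, did not pass either (0.62, SE 0.24, adjusted p = 0.092 on 6 arrays), its lowest Yap-on value being just under the highest Yap-off one. Ube2c and Cdc20, which act with the anaphase-promoting complex, Birc5, the survivin of the chromosomal passenger complex, and the Aurora kinases Aurka and Aurkb differed by 0.10 to 0.32, and their 95% intervals on 6 arrays included 0.

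**Figure D3:**
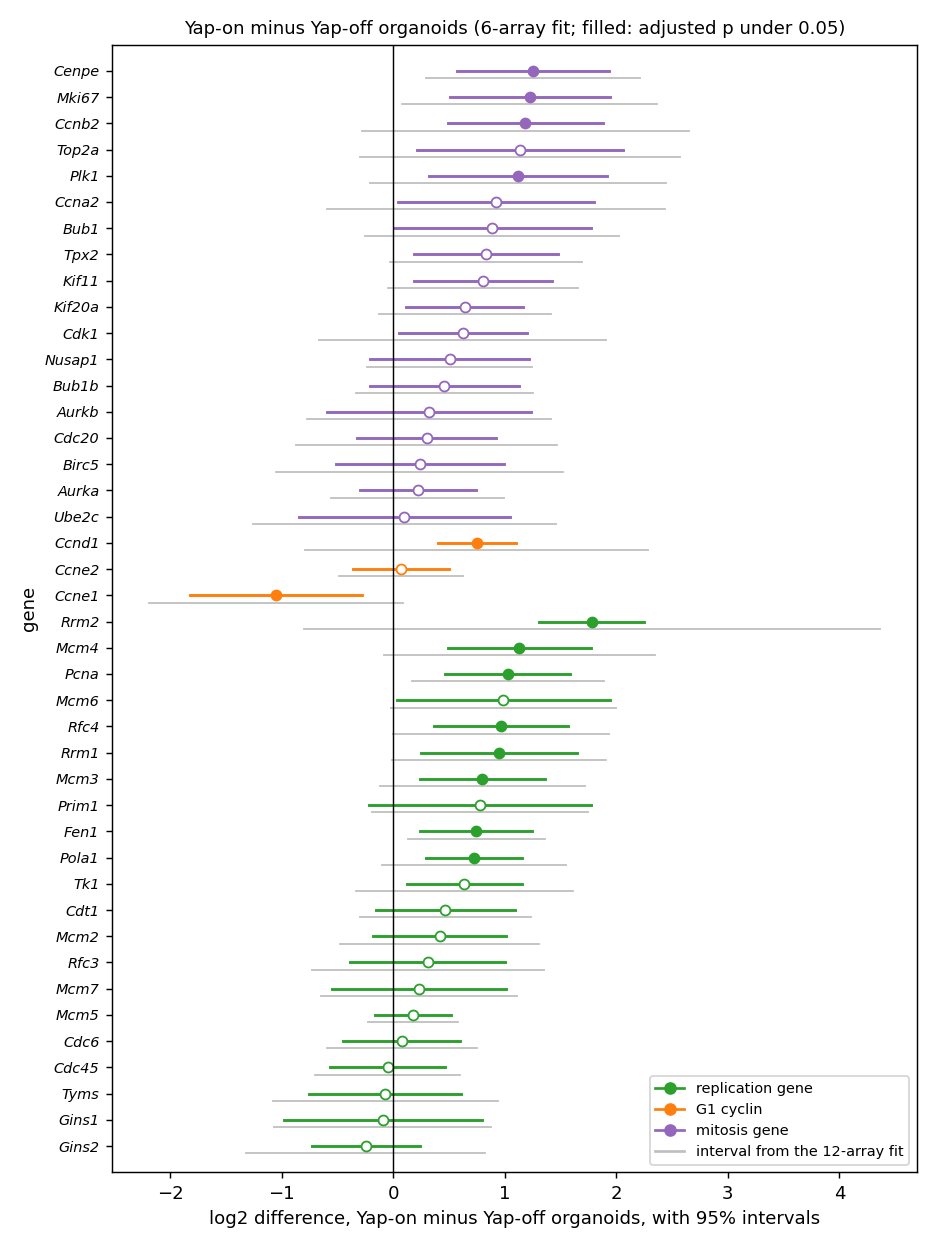
Log2 difference of Yap-on minus Yap-off organoids (x axis) for each measured gene, ordered by size within its class, with 95% intervals from the fit on the 6 arrays compared (coloured) and on all 12 arrays (grey). Filled points mark adjusted p under 0.05 on 6 arrays; most points lie to the right of 0, Rrm2 is highest at 1.78 and Ccne1 lowest at -1.05.

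The G1 cyclins went separate ways. Ccnd1, cyclin D1, which links growth signals to the cycle, stood at 10.78, 10.59 and 10.28 with Yap off and at 11.39, 11.33 and 11.18 with Yap on. Every Yap-on library lay above every Yap-off library, with a difference of 0.75 (SE 0.15, adjusted p = 0.0094 on 6 arrays). Ccne1, cyclin E1, was the only member called lower with Yap on. It stood at 5.89, 6.32 and 5.32 with Yap off and at 4.50, 4.50 and 5.37 with Yap on, so that Yap-on 3 overlapped the lowest Yap-off library. The difference was -1.05 (SE 0.32, adjusted p = 0.048 on 6 arrays, 0.22 on 12), and 4 of the 6 fits that left out a library lost the call. Ccne2, cyclin E2, stood at 4.48, 3.99 and 3.94 against 4.0, 4.21 and 4.41 and differed by 0.07, with a 95% interval from -0.36 to 0.50 on 6 arrays.

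**Figure D4:**
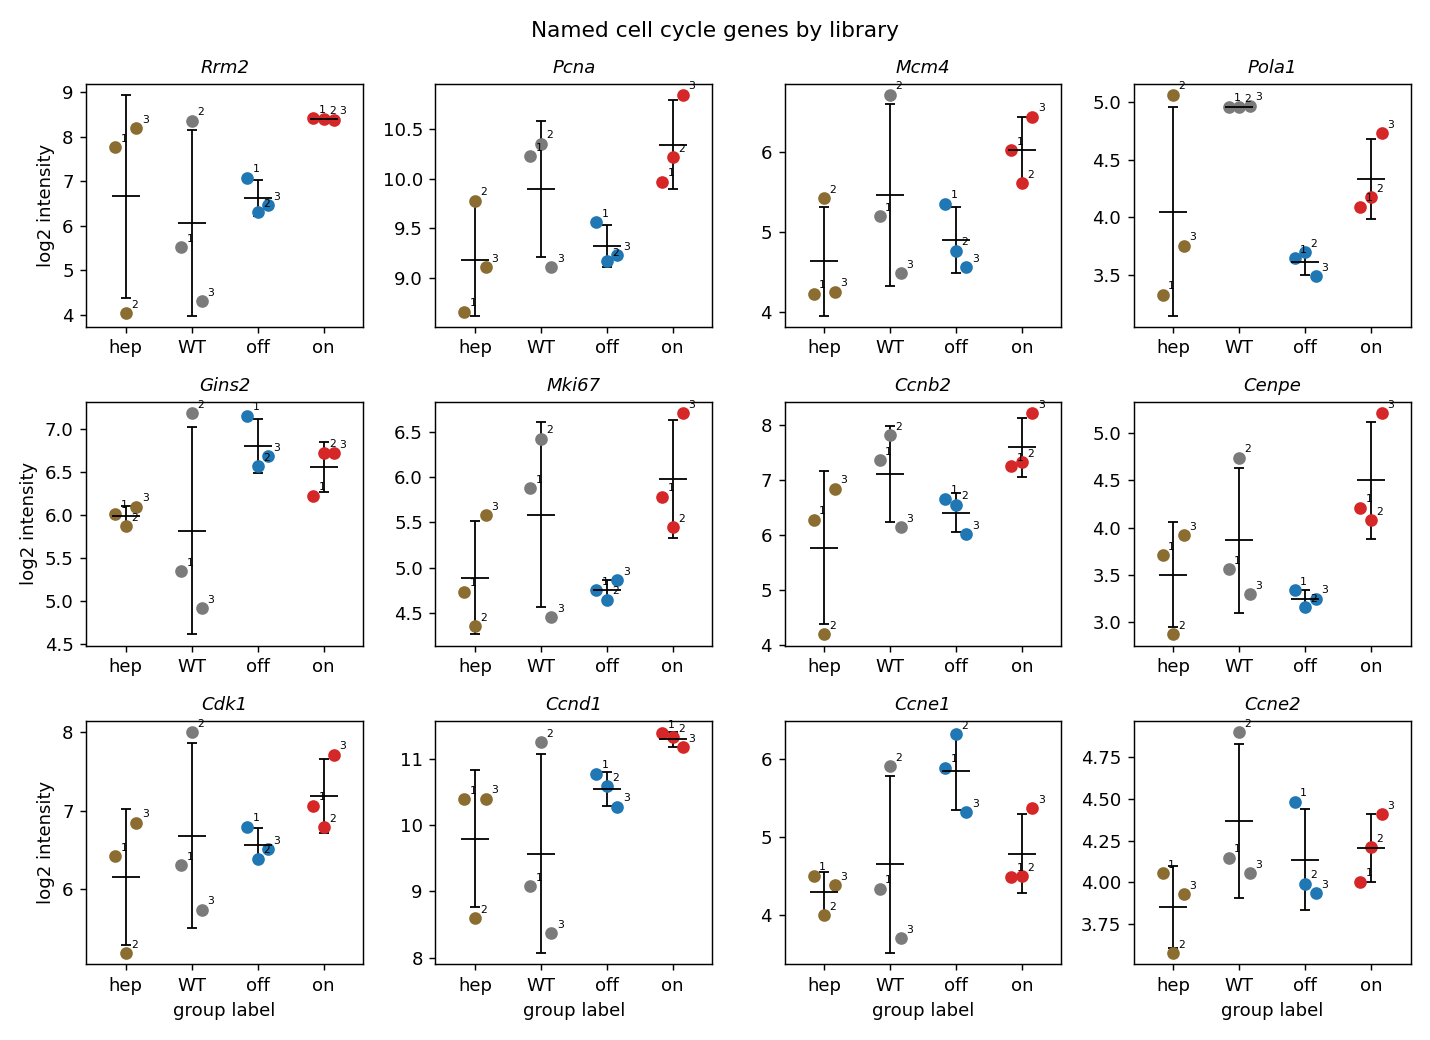
Log2 intensity (y axis) of 12 named genes by group label (x axis; hep, labelled hepatocyte; WT, labelled wild-type organoid; off and on, Yap-off and Yap-on organoids), with 1 point per library numbered by replicate and black bars for the mean and SD of 3 libraries. Rrm2 and Ccnd1 are tightly grouped in the Yap-on libraries and widely spread under the hepatocyte and wild-type labels, and Ccne1 is highest in Yap-off 2 (6.32), ahead of wild-type organoid 2 (5.91) and Yap-off 1 (5.89).

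Further genes of the same processes were taken from lists written with the earlier results in view. Of 47 other replication genes 3 rose and 0 fell on 12 arrays and 14 rose and 0 fell on 6 arrays, with a median of 0.46, against 7.09% of all genes that rose on 12 arrays and 19.1% on 6. Pold3, a subunit of DNA polymerase delta, averaged 4.62 with Yap off and 6.58 with Yap on, a difference of 1.96 (SE 0.30, adjusted p = 0.0025 on 12 arrays). Gins4, another GINS subunit, rose by 1.80 (adjusted p = 0.019) and Dnmt1, which copies DNA methylation, by 1.07 (adjusted p = 0.037). Gins4 stood at 5.60, 5.31 and 6.39 with Yap off and at 7.64, 7.50 and 7.56 with Yap on, while Gins1 and Gins2 were without a call. Gins3 stood at 3.90, 3.28 and 3.30 against 2.92, 3.22 and 3.40, below the array medians of all genes. Gins1 lay below them on 9 of 12 arrays, and a difference between the subunits was not tested.

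Of 66 other mitosis genes 1 rose and 0 fell on 12 arrays, and 11 rose and 1 fell on 6 arrays, with a median of 0.50, where 7.09% of all genes rose on 12 arrays and 19.1% rose on 6, so that neither share lies above the background. The gene called on 12 arrays was Kif23, the kinesin of the central spindle, at 6.01, 5.42 and 5.10 with Yap off and 7.42, 7.24 and 7.67 with Yap on (1.93, SE 0.37, adjusted p = 0.0083). On 6 arrays Knstrn, a spindle adaptor, and Cdca8, borealin of the passenger complex, rose by 1.71 and 1.20 (adjusted p = 0.0050 and 0.0074).

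Of 18 genes of the RB and E2F axis and of cell cycle transcription, MuvB subunits and Myc among them, 2 rose and 0 fell on 12 arrays (all genes, 7.09% and 4.36%). Both are pocket proteins that restrain E2F. Rb1 stood at 5.23, 5.19 and 5.16 with Yap off and at 6.65, 7.01 and 6.74 with Yap on, a difference of 1.61 (SE 0.38, adjusted p = 0.023). Rbl1, p107, averaged 3.32 and 3.97 and rose by 0.64 (adjusted p = 0.046). On 6 arrays 7 of the 18 rose (all genes, 19.1%), Myc among them (0.70, adjusted p = 0.0050). Among 8 genes of G1 kinases and other D cyclins, Ccnd2, cyclin D2, was the 1 that passed on 6 arrays, where it rose by 1.64 (adjusted p = 0.00041, against 0.33 on 12 arrays). Among 6 CDK inhibitors 0 rose and 1 fell on 6 arrays, and 0 rose or fell on 12, beside the same shares of all genes. The 1 that fell was Cdkn2b, p15, by 0.55 (adjusted p = 0.0041 on 6 arrays).

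Differentiation markers moved along with these differences, as did sex-linked genes. The median of 10 hepatocyte markers ran from 11.27 to 11.80 with Yap off and from 3.27 to 3.47 with Yap on, and that of 7 biliary markers from 7.0 to 7.18 and from 9.18 to 9.56. Xist, the transcript of the inactive X chromosome, ran from 8.49 to 9.20 with Yap off and from 3.14 to 3.20 with Yap on, and the Y-linked Eif2s3y from 2.50 to 2.85 and from 7.13 to 7.42. Cell state, sex and Yap in culture cannot be told apart for any member. Among the libraries labelled hepatocyte Xist stood at 8.82 in number 1, at 3.0 in number 2 and at 9.0 in number 3.

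Against the libraries labelled hepatocyte, all 42 members had a higher mean in Yap-on organoids. The median difference was 1.09 for mitosis and 0.56 for replication genes, against -0.07 for all genes. Without overlap 25 members were higher and 0 lower (all genes, 18.4% and 21.1%). On 12 arrays limma called 1 member higher, Mcm6 (all genes, 6.19%, with 4.26% higher). At an unadjusted p under 0.05, 18 members passed, as did 3905 of all 19937 genes.

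Mcm6 stood at 5.48, 5.41 and 5.48 for hepatocyte 1 to 3 and at 6.96, 7.12 and 7.86 for Yap-on 1 to 3. The libraries labelled hepatocyte lay close together for this gene, and all below the Yap-on libraries. The difference was 1.85 (SE 0.45, adjusted p = 0.040), and the call was lost when any 1 of the 6 libraries was left out, with adjusted p from 0.063 to 0.16. On the 6 arrays compared, where 8.82% of all genes were called and 6.28% higher, Mcm2 (1.23), Mcm6, Rrm1 (1.18) and Bub1b, a spindle checkpoint kinase (0.76), were called higher, with adjusted p from 0.0093 to 0.044. Without the discordant pair 13 members were called, all higher (all genes, 21.6%, with 12.4% higher), among them Mcm4 (1.78) and Tk1 (1.58).

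Yap-off organoids differed less from the libraries labelled hepatocyte. The median difference was 0.36 for mitosis and 0.23 for replication genes (all genes, 0.02). Without overlap 8 members were higher and 0 lower (all genes, 11.1% and 8.58%). On 12 arrays limma called 0 members (all genes, 1.90%), and 3 passed at an unadjusted p under 0.05, as did 2588 of all 19937 genes. On the 6 compared it called 0 (all genes, 0.717%), and 7 passed unadjusted, as did 2486 of all genes. Ccne1 had the largest difference, at 4.51, 4.0 and 4.38 in the libraries labelled hepatocyte against 5.32 to 6.32 in the Yap-off libraries. It was 1.54 and was not called. Without the discordant pair 6 members were called (all genes, 14%, or 5.23% higher and 8.78% lower): Ccne1, Aurka, Tk1 and Tyms higher, and Rrm2 (-1.36) and Rfc4 (-1.15) lower.

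For Yap-on against wild-type organoids limma called 0 members on 12 arrays (all genes, 5.47%) and 0 on the 6 compared (all genes, 3.51%). At an unadjusted p under 0.05, 1 member passed on 12 arrays and 1 on 6, against 4400 and 3693 of all 19937 genes. Without overlap Rrm2 was higher and Pola1 lower (all genes, 14.4% and 11.7%). Without the discordant pair limma called 16, of which 15 were higher and Pola1 was lower (all genes, 41.0%, or 24.6% and 16.4%). Rrm2 stood at 5.52, 8.36 and 4.29 for wild-type organoid 1 to 3, and Ccnd1 at 9.08, 11.25 and 8.37, so that number 2 was close to the Yap-on libraries in both genes. Without the pair Rrm2 differed by 3.49 and Ccnd1 by 2.57, against wild-type organoid 1 and 3 alone. Those libraries carry the macrophage, endothelial and lymphocyte transcripts given above, whose part in these differences and calls was not tested.

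For Yap-off against wild-type organoids limma called 0 members on 12 arrays (all genes, 2.61%). At an unadjusted p under 0.05, 3 members passed, as did 3804 of all 19937 genes. Mcm3, Pola1 and Kif11, a motor of the spindle poles, were lower without overlap and 0 members higher (all genes, 8.32% and 10.9%). Pola1 stood at 4.96, 4.96 and 4.97 for wild-type organoid 1 to 3 and from 3.49 to 3.70 with Yap off. The wild-type values lay close together, and the gene was called lower on the 6 arrays (-1.35, SE 0.13, adjusted p = 0.029; all genes, 0.306%, with 0.0602% lower). Pola1 lies on the X chromosome, and Xist ran from 3.14 to 3.30 in wild-type organoids and from 8.49 to 9.20 with Yap off, so that sex and group cannot be told apart here. Without the discordant pair 7 members were called (all genes, 32.3%, or 18.2% higher and 14.1% lower), with Ccnd1, Ccne1, Gins2, Rrm2 and Tyms higher and Mcm3 and Pola1 lower.

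For wild-type organoids against the libraries labelled hepatocyte, limma called 0 members on 12 arrays (all genes, 0.0502%) and 0 on the 6 compared (all genes, 0.0%). At an unadjusted p under 0.05, 4 members passed on 12 arrays and 3 on 6, against 1762 and 731 of all 19937 genes. All 18 mitosis genes had the higher mean under the wild-type organoid label, with a median of 0.71, and 5 members were higher without overlap and 0 lower (all genes, 3.04% and 4.60%). Without the discordant pair that median was 0.0046. There 5 members were called (all genes, 30.7%, or 12.4% higher and 18.3% lower): Pola1 (1.43) and Mcm3 (1.28) higher, and Rrm2 (-3.07), Ccnd1 (-1.67) and Gins2 (-0.92) lower. Rrm2 and Ccnd1 thus split these 6 libraries as Krt19 did, with low values where macrophage markers were high.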

How the data were processed

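Total RNA was extracted, amplified with the Nugen Pico WT kit and hybridised to Affymetrix MoGene 1.0 ST arrays, per the labels' protocols. RMA, a background correction, quantile normalization and probe summary, gave the authors' intensities, per the submitters' processing notes, with no version or build named. Deposited intensities are linear, and their log2 was taken here. Of 34760 rows, 21640 name 1 gene, and the brightest row on average stood for each of 19937 genes, with no filter on low values. Group means were fitted in limma 3.58.1 (R 4.3.3) on all 12 arrays, and as an alternative on the 6 arrays compared. Adjusted p-values are limma's with Benjamini-Hochberg adjustment over all genes, called under 0.05, and SEs are limma's. Simulated data served to test the fit. With 3 arrays against 3 an exact permutation test cannot give a p below 0.1, and none was used. The precision is limited by the number of arrays. The members, lists and alternatives were chosen with earlier results of these data known, so nothing here is independent of them. Values of single libraries are given for 9 fixed members and for members called, at most 6 per class. Calls here are those on 12 arrays or, between Yap-on and Yap-off organoids, on 6. For most of these members not all 12 libraries are listed. From each further list up to 4 genes with the smallest p are named. Xist, Eif2s3y, Yap1 and single cell type markers, such as Krt19, Cyp2e1, Cd68 and Reln, were named to describe the libraries. Mcm6 and Mki67 were picked for their promoters after their motifs were seen. Alternatives covered scaling (quantiles again, median centring), the row rule (averaged rows), a filter on the lowest 30% of genes, eBayes with trend, array weights, a replicate block, and fits without the discordant pair or without each library in turn; those that join the 6-array fit with a left-out library or the block were added after seeing the data. Figures were drawn with matplotlib 3.10.9.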

Additional observations from a re-analysis of the deposited data

How the results depend on the processing

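The number of members called depended on which arrays set the spread. On all 12 arrays it was 0 for Yap-on against Yap-off organoids, and it was 14 on the 6 arrays compared, 14 without the discordant pair (hepatocyte 2, wild-type organoid 2) and 17 with array weights. With array weights 38.6% of all genes were called in this comparison, 21.1% higher and 17.5% lower, beside 16 members higher and 1 lower. It was 26.1% and 41.6% when wild-type organoids were set against Yap-off and Yap-on organoids. When hepatocytes were set against wild-type, Yap-off and Yap-on organoids, it was 27.2%, 12.2% and 31.8%. With both directions counted together, the members' counts under array weights lie near or below the background. For Yap-on organoids against hepatocytes 13 members were higher and 0 lower, where 16.5% and 15.3% of all genes were. Leaving out 1 library on 12 arrays left the count of members at 0 to 0 (all genes, 5.87% to 10.9%). On the 6 arrays it was then 6 to 19 (all genes, 18.9% to 39.4%), with 8 without Yap-on 3 (22.5%). For Yap-off against wild-type organoids it was 0, and 1 on 6 arrays (all genes, 0.306%), 5 with array weights and 7 without the pair (32.3%). It was 0 to 4 when 1 was left out, with 4 without that labelled wild-type organoid 2 (all genes, 19.4%). For Yap-on against wild-type organoids it was 0, and 6 with array weights and 16 without the pair (all genes, 41.0%). It was 0 to 7 when 1 was left out, with 7 without that labelled wild-type organoid 2 (all genes, 30.2%). For wild-type organoids against hepatocytes it was 0, and 5 with array weights and 5 without the pair (all genes, 30.7%). It was 0 to 2 when 1 was left out, with 2 without that labelled hepatocyte 2 (all genes, 4.36%). For Yap-off organoids against hepatocytes it was 0, and 2 with array weights, 6 without the pair and 0 to 0 when 1 was left out. For Yap-on organoids against hepatocytes it was 1, and 4 on 6 arrays (all genes, 8.82%), 13 with array weights, 13 without the pair (21.6%) and 0 with centred arrays (5.92%). It was 0 to 3 when 1 was left out, with 3 without that labelled hepatocyte 2 (all genes, 9.71%). The cause of these changes was not tested beyond the arrays named. Median differences of both classes moved by less than the spread between replicates in each alternative, except that of mitosis genes for wild-type organoids against hepatocytes, 0.0046 without the pair. That spread is wide under the hepatocyte and wild-type labels: without the pair the median for Yap-off against wild-type organoids turned from -0.45 to 0.03 for mitosis and from -0.20 to 0.10 for replication genes, as it did without wild-type organoid 2 alone, and with Yap on, against the same organoids, it went from 0.38 to 0.81 for mitosis and from 0.25 to 0.59 for replication genes. The replicate number as a block left 0 members called for Yap-on organoids against hepatocytes on 12 arrays (all genes, 4.92%). It left 11 for Yap-on against Yap-off organoids on the 6 arrays (all genes, 27.1%). The pairing is not shown by the data: deviations of arrays with the same number correlated between -0.711 and 0.118, and in 9 of 36 cases an array was closest to the one with its own number. Of 42 members 23 lay below the array median of all genes on some arrays, which limits their differences.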
